A study of Homo sapiens with 5 samples.

Results

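SR proteins, hnRNPs and the kinases that phosphorylate SR proteins decide which exons enter an mRNA. SR proteins bind exonic enhancers through RNA recognition motifs and recruit the splicing machinery through a domain rich in arginine and serine. hnRNPs coat nascent RNA and often repress nearby splice sites. SRPK kinases phosphorylate the arginine-serine domain in the cytoplasm, which allows nuclear import, and CLK kinases phosphorylate it further in the nucleus. Many of these genes limit their own protein by splicing in a poison exon, which sends the mRNA to nonsense-mediated decay. The 38 genes described here were chosen by gene symbol from the 10504 genes of the deposited abundance table: 13 SR proteins (11 SRSF genes with TRA2A and TRA2B), 19 hnRNP genes, and 6 kinases (CLK1 to CLK4, SRPK1 and SRPK2). Readthrough genes with a hyphen were not taken, and members that the table does not list were not analysed here. The group itself was proposed with the RNA, footprint and TE values of these cells known, so all of its values below are a description.

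HEK293A, a flat-growing subline of the human embryonic kidney line HEK293, was profiled by RNA-seq and ribosome profiling. One group received siRNA against IRE1α (siIRE1a), a sensor of unfolded proteins whose gene is ERN1, and the other a control siRNA (siCon). Fetal bovine serum was added after starvation in both, and no group without serum was measured. Of the 5 samples, 2 were labelled siIRE1a, 2 siCon and 1 was a multiplexed ribosome profiling library labelled with both siRNAs. The authors gave 1 RNA value and 1 footprint value per gene and group, so no replicate error stands beside them and neither RNA nor footprint differences can be tested. Their unit is not stated. Across genes, footprint values and coding length had a rank correlation (Spearman) of −0.51, so levels are given as the authors' values and are not ranked between genes. The sample descriptions tie each siRNA to a single assay, whereas the tables hold both assays for both groups, so assays were read from the column names. Only TE (translational efficiency, footprints over RNA) has a test, which is the authors' own.

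The siIRE1a libraries had 49112701 and 34172898 sequenced clusters and the siCon libraries 28769136 and 31876615, while the number of reads behind each gene is unknown. No cluster count is given here for the multiplexed library. ERN1 RNA was 0.0736 in siIRE1a cells and 0.121 in siCon cells, and its footprints were 0.275 in siIRE1a cells and 0.402 in siCon cells. Among fixed marks of HEK293 cells, VIM, NEFL and LIN28B had values in the table used here and PAX2 and NEFM did not, and none of 3 blood and 3 liver markers had one.

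Footprint-sized sequence shared between genes limits what can be said of many members, and the clearest case is HNRNPA1 and its intronless copy HNRNPA1L2. Their coding sequences of 963 bases differ at 15 positions (98.4% identity). A stretch of coding positions 16 to 45, counted from 1 at the A of the start codon, is shown because it holds a single difference, the capital letter (T21A, HNRNPA1 base first). It lies at chr12:54281386-54281415 for HNRNPA1 and chr13:52642508-52642537 for HNRNPA1L2, both on the plus strand of GRCh38 in GENCODE release 29, a different build from the hg19 of the submitters' processing notes.
HNRNPA1: tctccTaaagagcccgaacagctgaggaag
HNRNPA1L2: tctccAaaagagcccgaacagctgaggaag
Of the 28-base stretches in the HNRNPA1 coding sequence, 62.5% also occur in HNRNPA1L2. The pair enter the counts below as 2 genes but cannot be taken as separate observations. Transcripts of some other gene, pseudogenes included, hold 97.0% of the 28-base stretches of HNRNPA1, 96.7% of those of SRSF1, 94.0% of HNRNPA3, 77.5% of HNRNPC and 70.0% of HNRNPK. The share is 79.3% for HNRNPA1L2, 47.7% for SRSF6, 37.4% for SRSF3, 36.2% for SRSF10, 31.2% for HNRNPH2 and 25.4% for CLK2. Among transcripts that code for protein, it is 96.05% for HNRNPA1, 17.3% for HNRNPC and 0.26% for SRSF10. It is 0% for SRSF1, SRSF3, SRSF6, HNRNPA3, HNRNPK and CLK2. HNRNPH2 shares 23.6% with coding transcripts of other genes. How the authors assigned reads with several matches is not stated.

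RNA of the SR proteins was lower in siIRE1a cells for 13 of 13 genes, and that of the hnRNPs for 17 of 19, against 51.2% of all genes. The median log2 change was −0.39 for SR proteins and −0.39 for hnRNPs, against −0.01 for all 10504 genes. The samples are bulk, so fewer cells expressing a gene and less RNA per cell cannot be told apart. RNA was at least 1.2-fold lower for 12 of 13 SR proteins, 12 of 19 hnRNPs and both SRPK genes, against 26.0% of all genes. At least 1.2-fold higher were CLK2 and CLK3, against 20.7% of all genes.

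Among the SR proteins, SRSF1, a founding member of the family, had RNA of 9.97 in siIRE1a cells and 13.3 in siCon cells. SRSF9 RNA was 4.42 in siIRE1a cells and 6.73 in siCon cells. SRSF10, which acts as a splicing repressor when dephosphorylated, was at 1.68 in siIRE1a cells and 2.66 in siCon cells. SRSF10 and SRSF9 were at the low end of the SR changes in RNA, at −0.67 and −0.61, with SRSF12 next at −0.60. SRSF12 is a weakly expressed relative of SRSF10, with RNA of only 0.135 in siIRE1a cells and 0.204 in siCon cells. At the other end stood SRSF11 (−0.20), SRSF8 (−0.27) and SRSF5 (−0.28). TRA2A and TRA2B, SR-like proteins that bind purine-rich GAA repeats, lay at −0.46 and −0.39. None of the SR proteins measured thus had higher RNA in siIRE1a cells, and their changes spanned −0.67 to −0.20. SRSF2 is not among them.

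The A/B type hnRNPs, which carry a pair of RNA recognition motifs and a glycine-rich tail, included some of the lowest RNA changes. HNRNPA1 RNA was 15.4 in siIRE1a cells and 22.0 in siCon cells, and HNRNPA1L2 RNA was 4.33 in siIRE1a cells and 6.17 in siCon cells. The pair changed almost equally, by −0.51 each. HNRNPA2B1, a partner of HNRNPA1 in nuclear particles, was at 10.2 in siIRE1a cells and 16.3 in siCon cells (−0.67). HNRNPA3 and HNRNPAB followed at −0.52 and −0.44. HNRNPA0, whose gene has no introns, was the exception of this type, with 0.911 in siIRE1a cells and 0.846 in siCon cells (0.11).

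Of the D type, HNRNPDL had the lowest RNA change of all 38 genes, with 2.72 in siIRE1a cells and 4.48 in siCon cells (1.65-fold lower, log2 −0.72). Its relative HNRNPD (AUF1), which binds AU-rich elements and affects mRNA decay, was at −0.39. The H/F type, whose quasi-RRMs bind runs of guanine, was split. HNRNPH3 RNA was 3.78 in siIRE1a cells and 6.12 in siCon cells (−0.69), and HNRNPH1 and HNRNPH2 were at −0.46 and −0.43. HNRNPF, in contrast, was at 6.61 in siIRE1a cells and 6.42 in siCon cells (0.04). The remaining hnRNPs lay between −0.33 and −0.14. They were HNRNPM (−0.33), HNRNPR (−0.31), the poly(U) binding HNRNPC (−0.23), the poly(C) binding HNRNPK (−0.22), the scaffold protein HNRNPU (−0.21), HNRNPUL1 (−0.20) and HNRNPLL (−0.14).

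The kinases divided by family in RNA. SRPK1 was at 1.15 in siIRE1a cells and 1.78 in siCon cells (1.55-fold lower), and SRPK2 at 0.517 in siIRE1a cells and 0.750 in siCon cells (1.45-fold lower). CLK1 was at 0.797 in siIRE1a cells and 0.876 in siCon cells, and CLK4 at 0.348 in siIRE1a cells and 0.371 in siCon cells. Both SRPK genes were thus lower in RNA by more than any CLK gene. CLK2 and CLK3 were instead higher in siIRE1a cells, CLK2 at 0.669 against 0.451 in siCon cells (log2 0.57) and CLK3 at 0.817 against 0.662 in siCon cells (log2 0.30). Most of these levels are under 1, where a pseudocount of 1 took the median RNA change of the 6 kinases to −0.04 in place of −0.11.

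**Figure D1:**
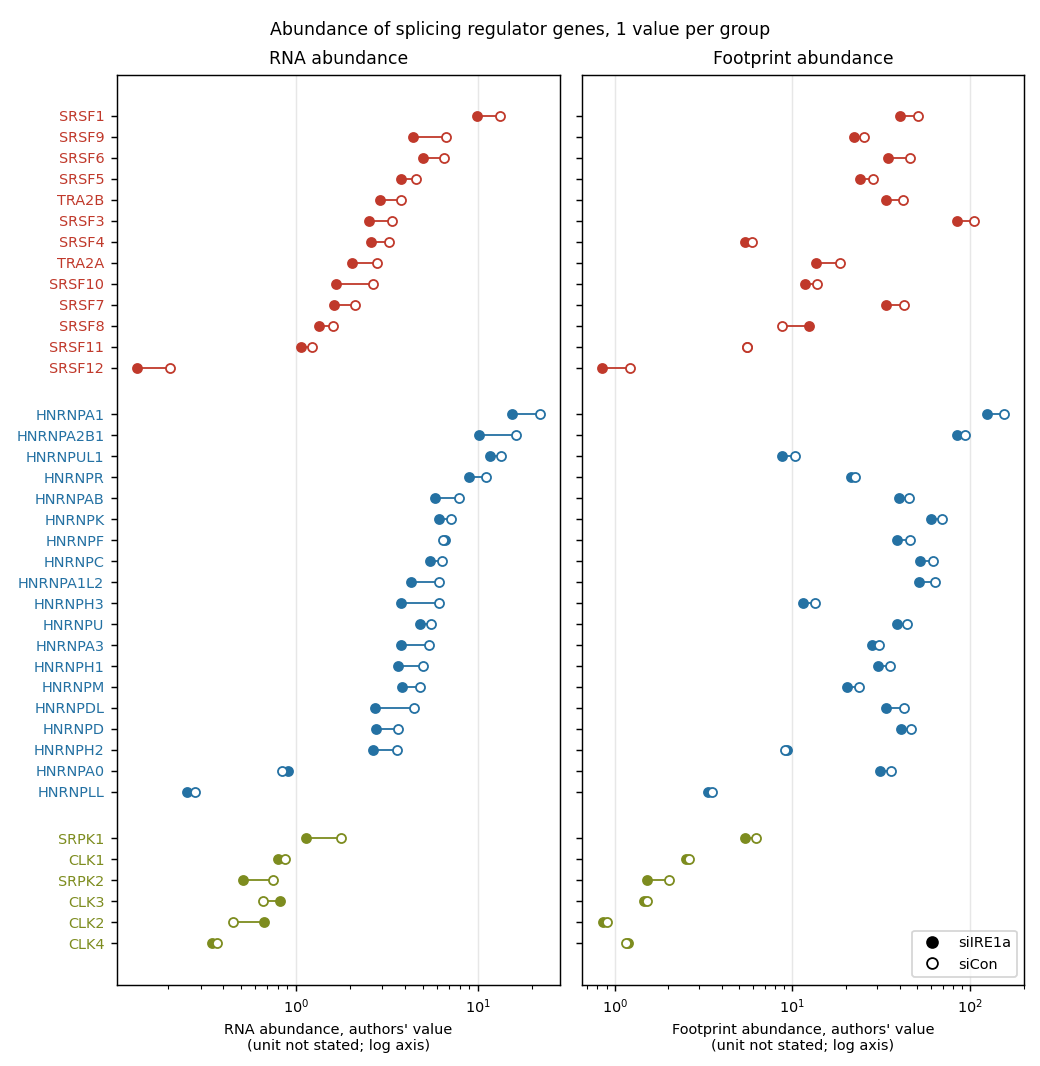
RNA abundance (left) and footprint abundance (right) of each gene on log axes, in the authors' unstated unit, with filled points for siIRE1a and open points for siCon cells (1 value per group). All 13 SR proteins have the filled RNA point to the left, CLK2 and CLK3 have it to the right, and SRSF8 is the SR protein whose filled footprint point lies clearly to the right.

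Footprints were lower in siIRE1a cells for 11 of 13 SR proteins and 18 of 19 hnRNPs, by less than RNA in most. Lower footprints were the usual direction, with 67.9% of all genes below 0. The median log2 change in footprints was −0.31 for SR proteins and −0.21 for hnRNPs, against −0.08 for all genes. At least 1.2-fold lower were 7 SR proteins, 3 hnRNPs (HNRNPA1, HNRNPA1L2 and HNRNPDL) and SRPK2, against 14.0% of all genes. At least 1.2-fold higher was SRSF8 alone among the 38, against 6.32% of all genes. The SR median lay 0.10 below the hnRNP median in footprints, while the RNA medians differed by under 0.01. A trend of footprint change on abundance over all genes was also removed, a step added once the data had been seen. The footprint medians were then −0.14 for SR proteins and −0.06 for hnRNPs, against −0.01 for all genes. That trend orders genes by the authors' values, whose unit is not stated.

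SRSF3, the smallest SR protein, had footprints of 84.0 in siIRE1a cells and 106 in siCon cells, and SRSF1 had 40.3 in siIRE1a cells and 50.9 in siCon cells. SRSF6 had footprints of 34.6 in siIRE1a cells and 46.0 in siCon cells (1.33-fold lower). In SRSF6 the footprint change (−0.41) was as large as the RNA change (−0.37). TRA2A was similar, with footprints of 13.5 in siIRE1a cells and 18.4 in siCon cells (−0.44). The lowest SR change in footprints was that of SRSF12, with 0.847 in siIRE1a cells and 1.23 in siCon cells (−0.53). SRSF7 and TRA2B lay at −0.34 and −0.31. SRSF4 (−0.14) and SRSF11 (0.00) had the smallest differences of the SR proteins measured.

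SRSF8, an SR protein encoded by an expressed retrocopy, stood apart. Its footprints were 12.4 in siIRE1a cells and 8.75 in siCon cells (log2 0.51), while its RNA was 1.34 in siIRE1a cells and 1.61 in siCon cells. It was the only one of the 38 genes in which RNA was lower and footprints were more than 1.2-fold higher in siIRE1a cells. Other genes' transcripts hold 15.1% of its 28-base coding stretches, and other coding transcripts hold 0.85%.

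Among the hnRNPs, footprints of HNRNPA1 were 124 in siIRE1a cells and 155 in siCon cells, and those of HNRNPDL were 33.4 in siIRE1a cells and 42.5 in siCon cells. HNRNPDL (−0.35), HNRNPA1 (−0.32) and HNRNPA1L2 (−0.31) were the lowest hnRNP changes in footprints. Footprints of HNRNPA2B1 were 84.0 in siIRE1a cells and 93.1 in siCon cells. HNRNPA2B1 thus had a footprint change of −0.15 beside an RNA change of −0.67. HNRNPH2 was the hnRNP with higher footprints, at 9.37 in siIRE1a cells and 9.13 in siCon cells (0.04), and HNRNPR (−0.07) and HNRNPLL (−0.08) were close to the median of all genes. HNRNPF and HNRNPA0, the hnRNPs without lower RNA, had footprints lower by 0.25 and 0.20 on the log2 scale.

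Footprints of the CLK genes were close between the groups. CLK1 had 2.53 in siIRE1a cells and 2.62 in siCon cells, CLK2 had 0.856 in siIRE1a cells and 0.909 in siCon cells, and CLK3 had 1.47 in siIRE1a cells and 1.52 in siCon cells. CLK4 had 1.19 in siIRE1a cells and 1.16 in siCon cells. The 4 CLK genes thus spanned −0.09 to 0.03 in footprints although their RNA spanned −0.14 to 0.57. SRPK1 had footprints of 5.38 in siIRE1a cells and 6.22 in siCon cells (−0.21). SRPK2 had 1.51 in siIRE1a cells and 2.03 in siCon cells (−0.43), the lowest of the kinases.

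**Figure D2:**
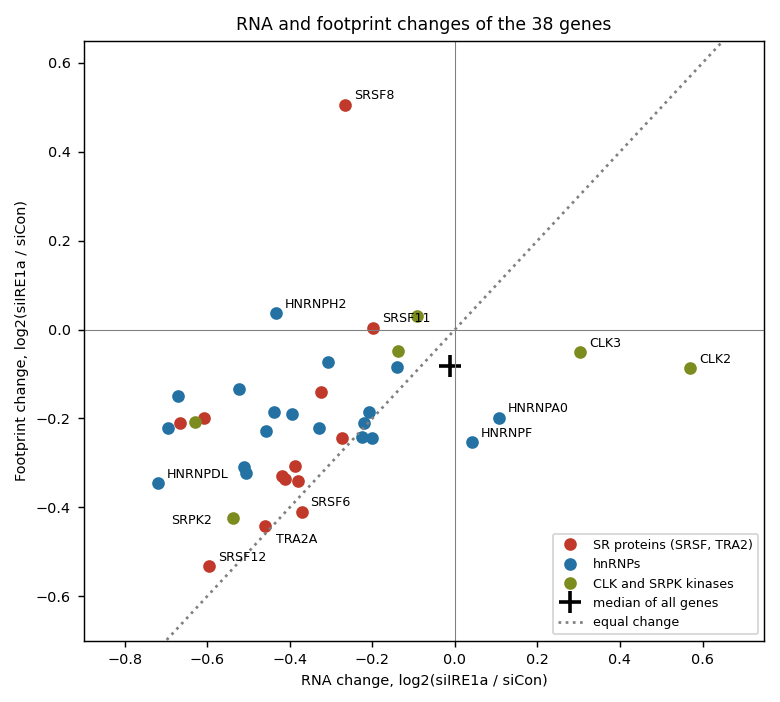
Log2 change in RNA (horizontal) against log2 change in footprints (vertical), siIRE1a over siCon, for the 38 genes, with the median of all genes as a cross and a dotted line where both changes are equal. Most genes lie at lower left and above the dotted line, SRSF8 lies at the top, and CLK2, CLK3, HNRNPA0 and HNRNPF lie on the right with RNA above 0 and footprints below 0.

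TE gives the ratio of both, and the authors' deposited table had a test for all 38 genes. In the authors' deposited table, 3 of 13 SR proteins, 3 of 19 hnRNPs and 1 of 6 kinases rose in TE at an adjusted p under 0.05, against 5.90% of all tested genes. None of the 38 fell, against 4.62% of all tested genes. Medians of the log2 TE values in the authors' deposited table were 0.11 for SR proteins, 0.22 for hnRNPs and 0.14 for kinases, against −0.04 for all genes. The ratio of footprints over RNA was higher in siIRE1a cells for 12 of 13 SR proteins and 15 of 19 hnRNPs, against 44.3% of all genes.

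SRSF8 rose most in the authors' deposited table (log2 0.79, adjusted p = 1.8e-05), with a TE of 9.30 in siIRE1a cells and 5.44 in siCon cells. SRSF10 rose by 0.50 (adjusted p = 0.0453) and SRSF9 by 0.42 (adjusted p = 0.0447) in the authors' deposited table. In SRSF10 and SRSF9 the RNA changes were the lowest of the SR proteins measured, while footprints were lower by only 0.21 and 0.20 on the log2 scale. In SRSF8 the footprints were higher. The authors' deposited table had the hnRNP rises in HNRNPA2B1 (0.56, adjusted p = 0.0158), HNRNPH3 (0.50, adjusted p = 0.0372) and HNRNPH2 (0.50, adjusted p = 0.0267). TE of HNRNPA2B1 was 8.21 in siIRE1a cells and 5.72 in siCon cells. Footprints of HNRNPH3 were 11.4 in siIRE1a cells and 13.3 in siCon cells (−0.22), beside an RNA change of −0.69. HNRNPH2 shares sequence with other coding transcripts, and SRSF10 mostly with transcripts that do not code for protein, as given above. SRPK1 was the kinase that rose in the authors' deposited table (0.45, adjusted p = 0.0320), with a TE of 4.69 in siIRE1a cells and 3.50 in siCon cells. Standard errors back-calculated from the authors' adjusted p, on the assumption that it came from a normal test and was adjusted by Benjamini-Hochberg, were 0.142 for SRSF8, 0.166 for HNRNPA2B1 and 0.149 for SRPK1.

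Genes that did not pass the authors' test include the lower end of the hnRNPs and the CLK genes. HNRNPA3 (0.43, adjusted p = 0.0893) and HNRNPDL (0.40, adjusted p = 0.0841) lay just outside in the authors' deposited table. HNRNPA0 (−0.30, adjusted p = 0.122), HNRNPF (−0.28, adjusted p = 0.137) and HNRNPUL1 (−0.03, adjusted p = 0.906) were the lowest hnRNPs in the authors' deposited table. CLK2 had the lowest value of the 38 in the authors' deposited table (−0.63, adjusted p = 0.0910), with a TE of 1.28 in siIRE1a cells and 2.02 in siCon cells. Transcripts of other genes hold 25.4% of its 28-base coding stretches. CLK3 was at −0.31 (adjusted p = 0.428), CLK1 and CLK4 at 0.15 each and SRPK2 at 0.14 in the authors' deposited table. Lowest among the SR proteins in the authors' deposited table stood SRSF6 (−0.03), TRA2A (0.04) and SRSF7 (0.05), with adjusted p between 0.839 and 0.936.

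**Figure D3:**
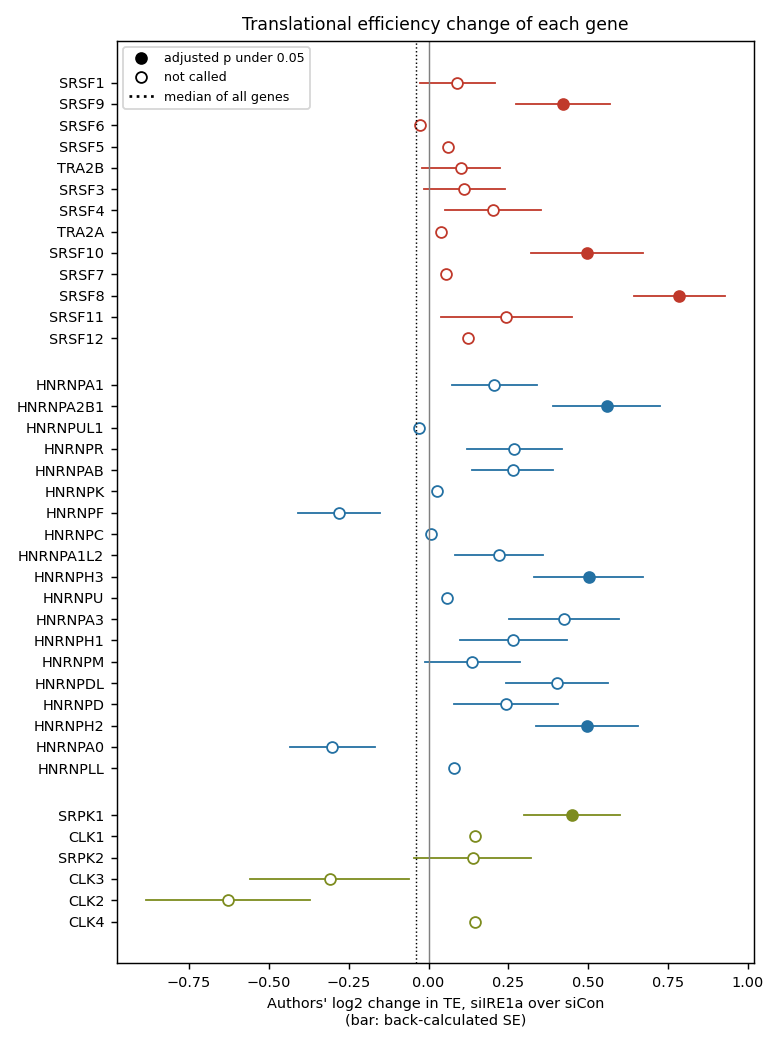
The authors' log2 change in TE for each gene, siIRE1a over siCon, with bars of 1 back-calculated standard error where one could be obtained, filled points at an adjusted p under 0.05 and a dotted line at the median of all genes. The 7 filled points are SRSF8, SRSF9, SRSF10, HNRNPA2B1, HNRNPH2, HNRNPH3 and SRPK1, all to the right of 0, and CLK2 lies furthest to the left, unfilled.

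RNA changes over all genes followed transcript GC content (rank correlation 0.626 over genes, which are not independent replicates), and the median GC content of each class of members lay below that of all genes. Median GC content was 42.7% for SR proteins, 44.5% for hnRNPs and 42.1% for kinases, against 47.9% for all genes. With the GC trend of all genes removed, the median RNA change was −0.22 for SR proteins and −0.33 for hnRNPs, and 12 of 13 and 15 of 19 were still below 0, against 50.4% of all genes. For the kinases it was 0.16 in place of −0.11. Among the 38 members the rank correlation of RNA change and GC content was −0.01. SRSF9, with a GC content of 52.3%, had the lowest SR value after removal of the trend (−0.73). CLK2 (53.0%) and CLK3 (55.4%), at like GC content, were at 0.43 and 0.12 after that removal. CLK1 and CLK4, whose RNA was below 0 before it, were at 0.20 and 0.28. SRPK1 and SRPK2 stayed below 0, at −0.44 and −0.31. Removal of the trend from TE left 2 of the 7 calls, SRSF8 (adjusted p = 9.2e-04) and SRSF9 (adjusted p = 0.0101), and ended those of SRSF10, HNRNPA2B1, HNRNPH2, HNRNPH3 and SRPK1. Over all genes that removal left 0.827% called higher and 0.476% called lower, so calls became fewer in general. After that removal HNRNPAB passed as higher (0.49, adjusted p = 0.0162) and HNRNPA0 as lower (−0.52, adjusted p = 0.0119). These p-values rest on the back-calculated standard errors. The HNRNPA0 transcript used has 41.1% GC with a 3′ UTR of 7498 bases, while its coding sequence has 64.3%. How far the HNRNPA0 call depends on that transcript was not tested. The part of base composition in the remaining differences was not tested.

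**Figure D4:**
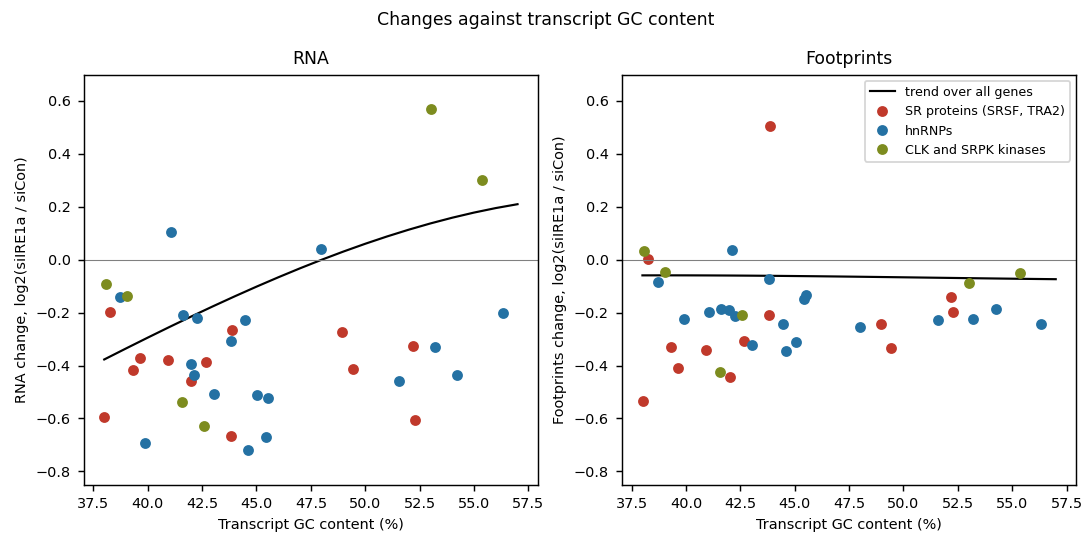
Log2 change in RNA (left) and in footprints (right), siIRE1a over siCon, against transcript GC content in percent, with a line for the trend over all genes. The trend climbs with GC content in RNA and is nearly flat in footprints, and most SR proteins and hnRNPs lie below it in both.

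The annotation gives a feature that the choice of members by name did not use. GENCODE lists at least 1 transcript of the nonsense-mediated decay class for 13 of 13 SR proteins, 12 of 19 hnRNPs and 5 of 6 kinases, against 44.6% of all genes. Transcripts with a retained intron are listed for 10 SR proteins, 12 hnRNPs and 5 kinases, against 60.1% of all genes. The hnRNP share (63.2%) is close to that of all genes. The median number of annotated transcripts was 9 for SR proteins, 11 for hnRNPs and 15 for kinases, against 8 for all genes. The shares were not adjusted for that number. The tables hold 1 value per gene, so productive mRNAs and those with a poison exon or a retained intron cannot be told apart in them.

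Promoters were examined because most members had lower RNA together. RefSeq entries of GRCh38.p14, which span 250 bases before to 50 after each start, matched 36 of the 38 symbols. The motif GCCATTT, noticed in these sequences and then counted on both strands, occurs in 10 of 36 members (7 hnRNPs, 2 SR proteins and CLK4). This compares with 6.41% of the measured genes with an entry. Counted by entry, it occurs in 11 of 54 member entries (20.4%), against 4.39% of all entries. In 10 of the 11 member entries with the motif it begins within 25 bases of the start, against 23.1% of all entries with it. The motif was picked from the members' own promoters, so its higher share and its position in them follow in part from that choice. Enrichment was not tested. The motif resembles the core that the factor YY1 is known to bind, but a match is only a description. Stretches of 30 bases are shown for 5 members in which the motif, in capitals, lies at the start of the gene and on its strand.
SRSF1: ctgataaaggcGCCATTTtggaggggccgc
SRSF3: ggcggtggtccGCCATTTcgtggacgccgg
HNRNPD: ttcttccgtcgGCCATTTtaggtggtccgc
HNRNPR: gtggcgcgcgcGCCATTTctagtcgttttc
HNRNPUL1: cggtggcggcgGCCATTTtgagccgctgcc
They lie at chr17:58007228-58007257 (minus strand), chr6:36594353-36594382 (plus), chr4:82373969-82373998 (minus), chr1:23344266-23344295 (minus) and chr19:41264358-41264387 (plus). Members with the motif had a median RNA change of −0.36 and members without it −0.38, so RNA medians hardly differed with the motif.

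The 7-mers GGACCTA and GACCTAA were looked up in 3′ UTRs with it known that genes holding them have low footprints in these data. Either occurs in 926 of the 10219 genes whose 3′ UTR has 50 bases or more. Genes with them had a median footprint change of −0.14, against −0.08 without them, and a median RNA change of −0.21, against 0.00 without them. The comparison was not matched for 3′ UTR length or for GC content, which RNA changes followed. In the members the 7-mers occur in 3 of 38, a share no higher than the 9.06% of all genes examined. The sites are shown with the 7-mer in capitals (both overlap in SRPK2, giving 8 bases), from GENCODE transcripts on GRCh38.
SRPK2: cccagtacattGGACCTAAacggtgactc
SRSF3: tttttcagggtGACCTAAccctgtgtaat
SRSF8: aggaggtgaacGACCTAAgattacgttat
The sites lie at chr7:105117770-105117798 (minus strand), chr6:36604790-36604818 (plus) and chr11:95068289-95068317 (plus). Footprint changes were −0.43 for SRPK2, −0.33 for SRSF3 and 0.51 for SRSF8, while RNA was lower in all of them (−0.54, −0.42 and −0.27 in the same order).

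Other splicing genes were examined from lists fixed by name. The 25 SR-related proteins, such as SON and the scaffold protein SRRM2, had an RNA median of −0.13 and a footprint median of −0.16, with 0 higher and 1 lower in TE in the authors' deposited table. That gene was SRRM2 (−0.53, adjusted p = 0.00284), with RNA of 9.64 in siIRE1a cells and 8.01 in siCon cells. The 28 measured other RNA-binding splicing regulators had an RNA median of −0.18 and a footprint median of −0.14, with 1 higher and 2 lower in TE, against 5.90% higher and 4.62% lower of all tested genes. PTBP1, the polypyrimidine tract binding protein, fell in TE in the authors' deposited table (−0.50, adjusted p = 0.0113) and its paralog PTBP3 rose (0.69, adjusted p = 5.2e-04). PTBP1 RNA was 4.99 in siIRE1a cells and 3.97 in siCon cells, while PTBP3 RNA was 0.781 in siIRE1a cells and 1.33 in siCon cells. RBM10, a splicing regulator that promotes exon skipping, also fell in TE in the authors' deposited table (−0.60, adjusted p = 0.00964).

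Of 9 measured other kinases, phosphatases and partners that act on SR proteins, PPP1CB, a catalytic subunit of protein phosphatase PP1, rose in TE in the authors' deposited table (0.77, adjusted p = 2.3e-06) and none fell. PPP1CB RNA was 1.82 in siIRE1a cells and 3.17 in siCon cells, with footprints of 24.6 in siIRE1a cells and 25.6 in siCon cells. The 9 measured transport receptors and export factors had a median RNA change of 0.22, and the export receptor NXF1 fell in TE in the authors' deposited table (−0.63, adjusted p = 8.4e-04). NXF1 RNA was 1.60 in siIRE1a cells and 1.28 in siCon cells, with footprints of 5.08 in siIRE1a cells and 6.39 in siCon cells. Of 15 nonsense-mediated decay and exon junction factors, UPF2 rose (0.72, adjusted p = 0.0136) and UPF1 fell (−0.52, adjusted p = 0.0159) in the authors' deposited table. UPF2 footprints were 0.626 in both groups, while its RNA was 0.288 in siIRE1a cells and 0.465 in siCon cells. UPF1 RNA was 0.911 in siIRE1a cells and 0.723 in siCon cells, with footprints of 5.16 in siIRE1a cells and 5.86 in siCon cells. All calls in these lists are given without removal of the GC trend. Over all tested genes 5.90% were called higher and 4.62% lower. Single calls in lists of 9 or 15 genes therefore say little about a list as a whole. The median RNA change of the decay and exon junction factors was −0.08. In these lists RNA was below 0 for 19 of 25 SR-related proteins, 20 of 28 other regulators, 4 of 9 enzymes, 3 of 9 transport factors and 8 of 15 decay factors, against 51.2% of all genes. The RNA shares for enzymes and decay factors are close to that of all genes. Footprints were below 0 for 23 of 25 SR-related proteins and 23 of 28 other regulators, against 67.9% of all genes. They were also below 0 for 8 of 9 enzymes, 8 of 9 transport factors and 14 of 15 decay factors.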

How the data were processed

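The deposited table gives a footprint abundance and an RNA abundance per gene and siRNA group in a unit not stated, and the authors' TE columns equal the ratio of both. The authors' comparison table, named after DESeq2, holds log2 changes in TE with adjusted p-values; its model is not given in the sources used here. Cluster counts and mean quality scores of the siCon and siIRE1a libraries came from a deposited run summary. The submitters' processing notes name Bowtie 1.1.2 and hg19 (GRCh37). How replicates were combined, and whether they were separate cultures, is not given in the sources used here. No values per replicate were used, so edgeR, limma and replicate fits could not be run. The 9 symbols with several entries were left out of 10522 entries, which left 10504 genes, 8878 with an adjusted p-value. Changes are log2 of siIRE1a over siCon with no pseudocount, and the 1.2-fold line was chosen after seeing the data. GC content came from 1 protein-coding transcript per gene in GENCODE release 29, matched for 10442 genes (99.4%), and trends are polynomials of degree 3. For TE after a trend, standard errors were back-calculated (where p was under 0.5, otherwise the median of 200 genes of like abundance) and p-values adjusted again by Benjamini-Hochberg over all genes. This step was tested on simulated data. Members, lists and tests were chosen with earlier results of these data known. Genes named are the kinases, members called in TE, and the 3 highest and lowest SR proteins and hnRNPs in each measure, with up to 3 called genes per list; other members were named to complete a family, after their values were seen. Python 3.11.15, numpy 2.4.6, pandas 2.3.3, scipy 1.17.1 and matplotlib 3.10.9 were used. One marker gene is not reported here.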

Additional observations from a re-analysis of the deposited data

How the results depend on the processing

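No paired analysis was possible because the tables hold 1 value per group and assay; leaving out a replicate was not run for the same reason. All medians below are log2 changes, siIRE1a over siCon, and a value is given where it left the reported one by over 1.5 times or turned sign; the cause was not tested. The SR median in RNA was −0.2187 with the GC trend removed (reported −0.3884), and the hnRNP median in RNA stayed within 1.5 times of −0.3937 under every alternative run. The difference of SR and hnRNP medians in RNA (0.0053) was 0.0106 and 0.0008 with pseudocounts of 0.1 and 1, 0.0498 over members whose mean abundance was at least 1, 0.1133 with the GC trend removed, −0.0096 after quantile normalization, −0.0064 without SRSF8 and −0.0271 without HNRNPA1L2, so its sign is not settled. In footprints (reported −0.3073 for SR proteins and −0.2113 for hnRNPs) the SR median was −0.1377 after quantile normalization and −0.1428 with the abundance trend removed, and the hnRNP median −0.0682 and −0.0603 in the same way and −0.1295 with median centring. Their difference (−0.0961) stayed below 0 in all alternatives and was −0.0631 with a pseudocount of 1. In the TE ratio the SR median (0.0811) was −0.0009 with a pseudocount of 1, 0.1358 with median centring, 0.1869 after quantile normalization, −0.0470 with the GC trend removed and 0.1900 with the abundance trend removed. The hnRNP median (0.2006) was 0.1229 with a pseudocount of 1 and 0.3032 with the abundance trend removed. The difference in TE (−0.1195) was −0.0784 after quantile normalization and −0.2090 with the GC trend removed.

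The kinase medians, over 6 genes, moved under several settings. In RNA (−0.1145) the median was −0.0433 with a pseudocount of 1, −0.0448 after quantile normalization, −0.0604 with the abundance trend removed and 0.1578 with the GC trend removed. In footprints (−0.0686) it was −0.0373, −0.0148, −0.0111 and −0.0023 under those settings in the same order, and 0.0132 with median centring. In the TE ratio (0.1016) it was −0.0177 with a pseudocount of 1, 0.1563 with median centring and −0.1411 with the GC trend removed. With a mean abundance of at least 1 a single kinase, SRPK1, remained in RNA (−0.6304) and in TE (0.4213).

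At an adjusted p under 0.01, the authors' table called 1 SR protein, 0 hnRNPs and 0 kinases higher in TE, and 202 genes higher and 134 lower in all. At an adjusted p under 0.1 it called 5 hnRNPs higher, 1 kinase lower (CLK2) and 693 genes lower. With the GC trend removed, 1 hnRNP was higher and 1 lower, 0 kinases were called higher, and 73 genes were higher and 42 lower in all. The number of reads behind each value is unknown, so no limit of depth can be given.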
